A study of Mus musculus with 12 samples.

Results

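The comparison of mice given methionine and cocaine (MC) with mice given saline (SS) used 6 of the 12 small RNA libraries of the series, namely MC replicates 16, 17 and 20 and SS replicates 12, 13 and 14. The tissue was the medial prefrontal cortex (mPFC) of adult male C57/BL6 mice, taken 2 h after the place preference test on day 10. SS mice were saline+saline, CS mice cocaine+saline, MS mice MET+saline and MC mice MET+cocaine, where MET is l-methionine at 1 g/kg under the skin, given 2 times a day for 10 days. Cocaine was paired with 1 chamber of a conditioned place preference (CPP) apparatus. Each library was made from RNA of 18 to 30 nt pooled from 2 mice, so individual mice cannot be seen and p-values measure the spread between such pools. All classes of small RNA in the files were used, which were 3134 features over the 12 libraries.

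MicroRNAs (miRNAs) are cut from hairpin precursors and guide Argonaute proteins to mRNAs that pair with the seed, the bases next to the 5′ end. PIWI-interacting RNAs (piRNAs) silence transposons in germ cells and are rare in brain. Methionine feeds S-adenosylmethionine, the donor of methyl groups for DNA, RNA and histones. In neurons, miR-124 and miR-9 mark and keep the neuronal state, and Cdr1as, a circular RNA of brain, carries many sites for miR-7 and a site for miR-671, whose pairing leads to its cutting.

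The mature sequences of the miRNAs that the comparison turned on are given from 5′ to 3′ as RefSeq lists them for GRCm38.p6, with the seed (bases 2 to 8) in capitals. Of the 746 mature miRNAs tested, 636 (85.3%) had a sequence there, and miR-124-3p had none. The first 3 were higher in MC, the next 4 lower, and the last 4 were higher in MC replicates 17 and 20 but not in MC replicate 16.
miR-671-5p: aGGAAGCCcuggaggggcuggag
miR-329-5p: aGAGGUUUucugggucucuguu
miR-7052-3p: gCUCUGCCcccuccuucccag
miR-7a-5p: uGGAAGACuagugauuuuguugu
miR-7b-5p: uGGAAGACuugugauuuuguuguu
miR-341-3p: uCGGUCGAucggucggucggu
miR-98-5p: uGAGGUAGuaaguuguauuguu
miR-29a-3p: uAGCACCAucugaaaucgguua
miR-29b-3p: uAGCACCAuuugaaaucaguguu
miR-29c-3p: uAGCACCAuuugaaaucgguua
miR-153-3p: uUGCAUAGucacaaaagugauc
miR-7a-5p and miR-7b-5p shared the seed GGAAGAC, the 3 miR-29 members shared AGCACCA, and miR-98-5p carried GAGGUAG, the seed of let-7. Reads of such close relatives could be assigned to one another in counting, so a value for 1 member of a family is uncertain.

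In units of 1e6 counts, the SS libraries held 8.23, 10.0 and 11.1 and the MC libraries 7.77, 7.97 and 10.9. Values are given as CPM, the count scaled to a library of 1e6 counts, and a count of 3, the floor used for features at 0, was between 0.271 and 0.386 CPM (counting error only). Libraries did not fall together by treatment. From the profiles of 125 miRNA precursor families, SS replicate 12 stood with CS replicates 8 and 9 (set A), MC replicates 16 and 17 with CS replicate 10 (set C), and SS replicates 13 and 14 with MC replicate 20 and the MS libraries (set B). No SS library was in set C, so library set and treatment cannot be told apart for MC replicates 16 and 17. Families of plant miRNA precursors held 0.659% and 0.596% of the counts of MC replicates 16 and 17 and 0.559% of CS replicate 10, but at most 0.00882% of any other library. MC replicate 16 also stood apart by base composition. Relative to the SS mean, the 132 mature miRNAs with a GC content of at least 60% had a median log2 ratio of 0.87 there and the 102 with a GC content of at most 40% one of -1.30, whereas the same medians were 0.38 and 0.72 in MC replicate 17 and 0.34 and 0.65 in MC replicate 20. Many results that rest on these libraries are therefore given also without MC replicate 16 or within set B, where MC replicate 20 meets SS replicates 13 and 14. Some, among them most class shares, the arm shares and miR-7b-5p, are given without such values.

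**Figure D1:**
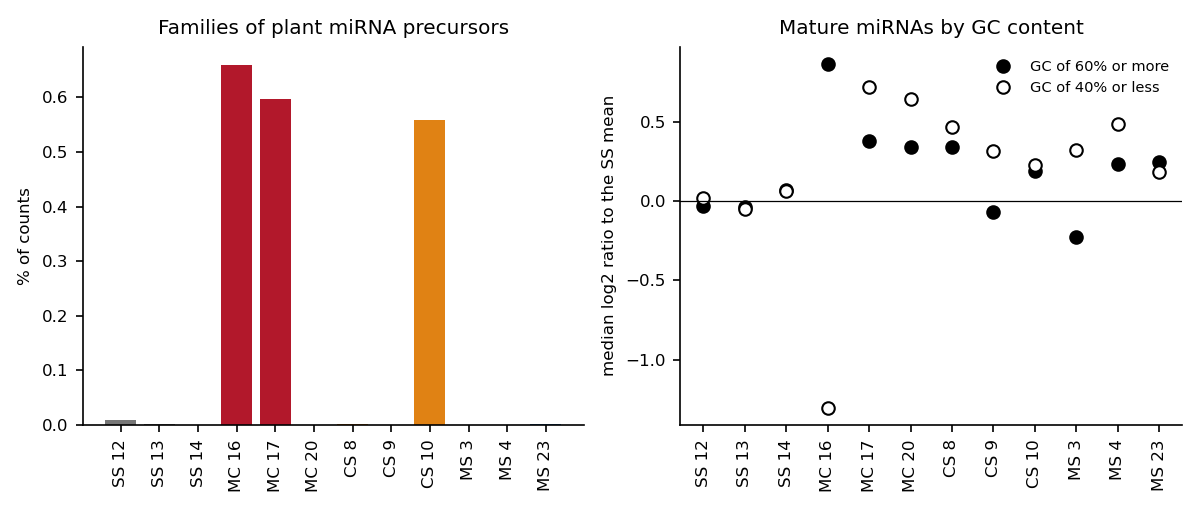
Left, bars show for each of the 12 libraries the share of counts (%) on precursor families of plant miRNAs, which is 0.659% and 0.596% in MC 16 and MC 17 and 0.559% in CS 10. Right, points show for each library the median log2 ratio to the SS mean over mature miRNAs with a GC content of 60% or more (filled) or 40% or less (open), and MC 16 is the library with the filled point highest and the open point lowest.

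Mature miRNAs held less of the library in MC than in SS. Their share of all counts was 63.4%, 67.9% and 65.5% in SS replicates 12, 13 and 14 and 56.0%, 60.6% and 59.3% in MC replicates 16, 17 and 20, so that the groups did not overlap and the MC mean was lower by 6.99 percentage points. Leaving out 1 library at a time gave differences of -8.08 to -5.69 points. In CS the share was 62.8%, 65.8% and 60.8% and in MS 65.9%, 59.5% and 63.6%, which overlapped MC. Reads left to exons, introns, repeats and intergenic regions were the counterpart, with 24.0%, 18.7% and 21.9% in SS and 31.4%, 24.1% and 25.5% in MC. Known piRNAs, listed under names such as mmu_piR_000958, made up 0.245%, 0.200% and 0.221% of counts in SS and 0.544%, 0.280% and 0.493% in MC. Their mean was 0.222% ± 0.0224 (SD, n = 3) in SS and 0.439% ± 0.140 in MC. In CS they made up 0.459%, 0.147% and 0.259% and in MS 0.240%, 0.354% and 0.238%. Intron reads and small nuclear RNAs were also higher in each MC library than in each SS library, with means of 5.19% against 4.47% and 0.0132% against 0.00927%. Over 3 against 3 libraries the two-sided exact permutation test cannot go below p = 0.10, and each of these differences reached that value (adjusted p = 0.267 over 16 shares).

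Known and predicted piRNAs together held 0.352% ± 0.0499 in SS and 0.592% ± 0.163 in MC (SD, n = 3), also without overlap (exact permutation p = 0.10, adjusted p = 0.267). The shares that follow overlapped between the groups. Precursor families held 9.84%, 14.3% and 13.5% in MC around an SS mean of 11.7% ± 0.585 (SD, n = 3). Small nucleolar RNAs (snoRNAs), which guide the modification of ribosomal RNA, held 0.0643%, 0.0327% and 0.0557% in MC and 0.0328% ± 0.00320 in SS, so that MC replicate 17 lay within the SS range and the others above it. Ribosomal RNA fragments held 0.101% ± 0.0431 in SS and 0.201% ± 0.114 in MC, with the highest value, 0.315%, in MC replicate 16. Predicted piRNAs and transfer RNA fragments held 0.130% and 0.0671% in SS and 0.153% and 0.110% in MC. Exact permutation p-values for these overlapping shares ran from 0.20 to 0.60.

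**Figure D2:**
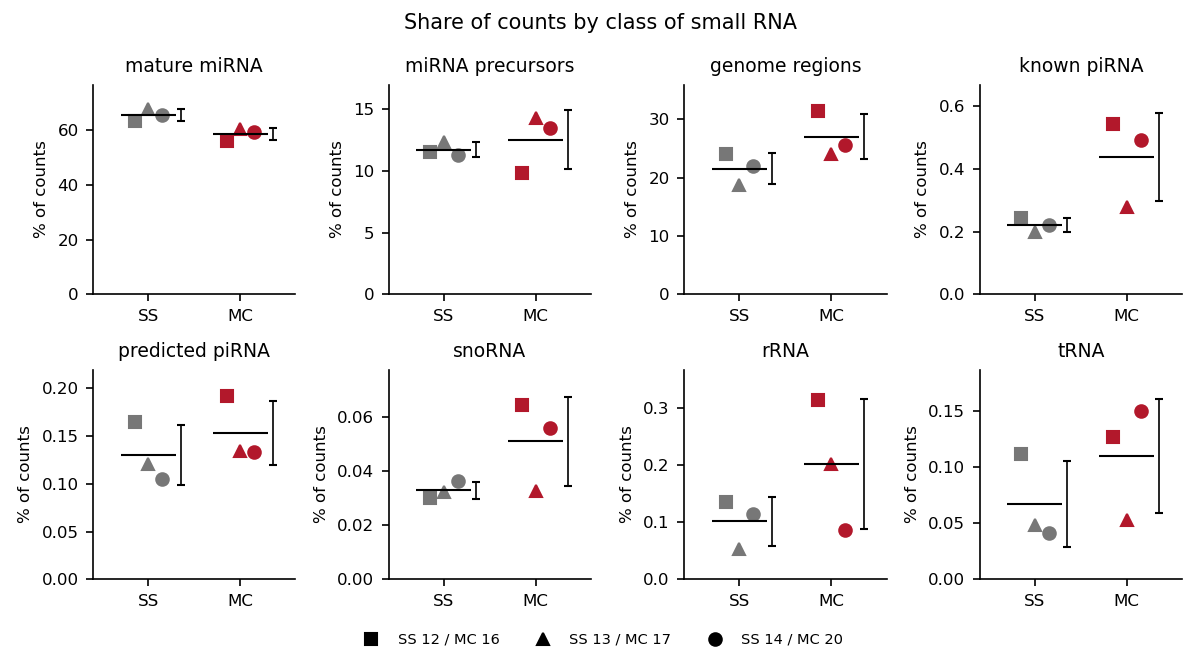
Points show the share of all counts (%) of 8 classes in each SS (grey) and MC (red) library, with the mean as a line and the SD as a bar. Each axis starts at 0, and marker shapes only name the libraries. In mature miRNA, genome regions and known piRNA all MC points lie on 1 side of all SS points.

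Across single small RNAs, none was past the threshold. A minimum of 5 counts in 3 or more libraries left 1393 features. In edgeR (quasi-likelihood test, p adjusted by Benjamini-Hochberg over all of them), 0 (0%) had an adjusted p of at most 0.05, and the smallest was 0.432. The unadjusted p was under 0.05 for 160 features, 115 of them higher in MC (8.26% of those tested) and 45 lower (3.23%). DESeq2 on the same counts called 27 features (1.94%), 15 higher and 12 lower, of which 10 were mature miRNAs, 11 precursor families (7 of them of plants), 4 predicted piRNAs, 1 known piRNA and 1 miRNA hairpin. These calls are named below as DESeq2's, since edgeR made none of them.

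In CPM, all 3 MC libraries lay above all 3 SS libraries for 126 features (9.05%) and below them for 38 (2.73%). That balance depended on the scaling. The median log2 fold change over all features was 0.16 with TMM factors, 0.26 with total counts alone and 0.09 with the size factors of DESeq2, and after TMM scaling 88 features (6.32%) lay above and 75 (5.38%) below. With median ratio scaling the balance turned, with 74 above and 95 below. For the 746 mature miRNAs the counts were 73 above (9.79%) and 15 below (2.01%) in CPM, and 48 (6.43%) and 40 (5.36%) after TMM scaling. Without MC replicate 16, the median log2 fold change over all features was 0.0011. The miRNAs described next as not overlapping between the groups kept that in both CPM and TMM scaling unless stated otherwise.

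**Figure D3:**
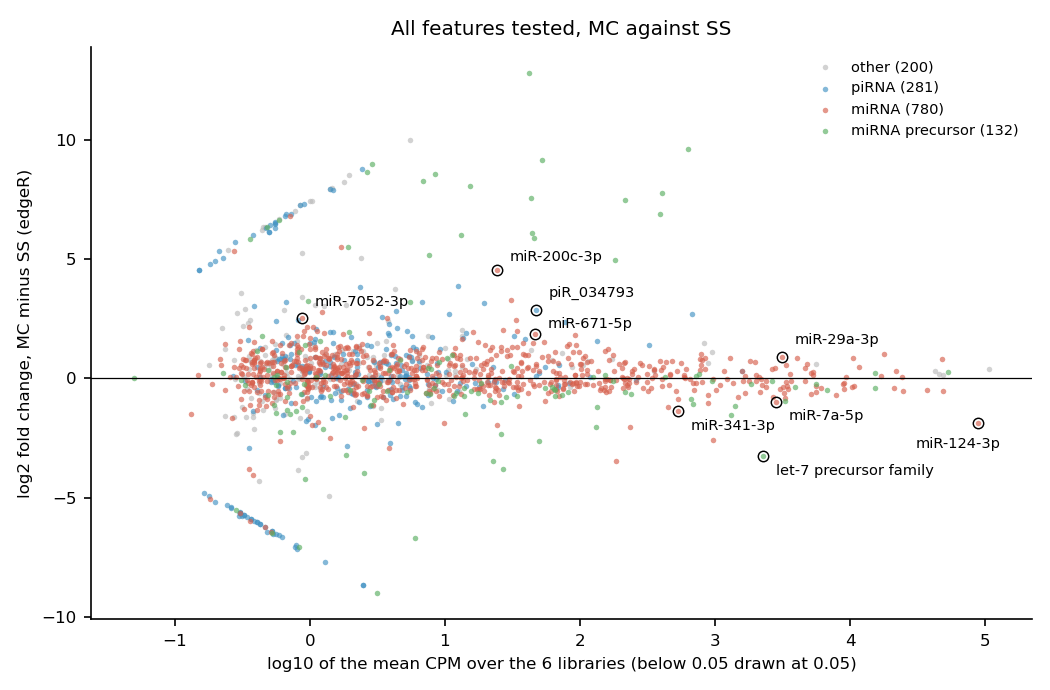
Each point is 1 of the 1393 features tested, with its mean CPM over the 6 libraries (log10 axis) and its log2 fold change, MC minus SS, coloured by class. The outer diagonal bands are features listed at 0 in all libraries of a group. Circled features are described in the text. miR-124-3p, at the right, had a log2 fold change of -1.86.

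Among mature miRNAs higher in MC, the smallest unadjusted p-values belonged to miR-329-5p, miR-7052-3p and miR-671-5p. The gene of miR-671-5p lies at chr5:24592132-24592154 (GRCm38.p6, + strand), in an exon of Chpf2 and opposite an exon of Smarcd3. miR-671-5p had 21.3, 15.3 and 21.2 CPM in SS and 62.6, 96.2 and 63.1 CPM in MC, from 154 to 235 counts against 486 to 767. Every MC library was above every SS library, and the log2 fold change was 1.85 (standard error of the fit, SE, 0.42, edgeR adjusted p = 0.432, DESeq2 adjusted p = 0.00305). Its GC content is 69.6%. A correction for GC content was added after the data were seen, but what part base composition had in the difference was not tested. miR-671-5p had a log2 fold change of 1.79 without MC replicate 16 and 1.49 within set B. In CS it had 37.3, 24.5 and 56.3 CPM and in MS 37.6, 71.0 and 88.3 CPM, values between the SS and MC ranges or within the MC range.

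miR-329-5p, a member of the imprinted Dlk1-Dio3 cluster at chr12:109713503-109713524 (+ strand), had 15.2, 17.3 and 19.4 CPM in SS and 48.5, 35.4 and 53.5 CPM in MC. The groups were apart by more than either spread, with means of 17.3 ± 2.11 and 45.8 ± 9.37 CPM (SD, n = 3). The log2 fold change was 1.34 (SE 0.28, edgeR adjusted p = 0.432, DESeq2 adjusted p = 4.76e-05), 1.08 without MC replicate 16 and 1.23 within set B. The CS libraries lay from 26.6 to 34.7 CPM and the MS libraries from 26.3 to 32.5 CPM, between the 2 groups and below each MC library.

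miR-7052-3p, in an intron of Josd2 at chr7:44470391-44470411 (+ strand), was counted only 2, 2 and 3 times in SS and 11, 14 and 15 times in MC. Its log2 fold change of 2.53 (SE 0.56, edgeR adjusted p = 0.432) therefore rests on few reads. It is the most GC-rich of the sequences printed above, at 71.4%, and was also 2.39 without MC replicate 16.

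The 3′ arms of miR-129, a miRNA of neurons, were both higher in MC. The 5′ arm, miR-129-5p, had log2 fold changes of 0.70 over all libraries, -0.08 without MC replicate 16 and -0.06 within set B. miR-129-2-3p had 54.4, 67.9 and 93.1 CPM in SS and 126, 154 and 133 CPM in MC (log2 fold change 0.86, SE 0.26, DESeq2 adjusted p = 0.0369), and the log2 fold change was 0.73 without MC replicate 16 and 0.43 within set B. miR-129-1-3p had 19.2 ± 5.18 and 41.1 ± 5.89 CPM (SD, n = 3), with log2 fold changes of 1.00 over all libraries and 0.83 within set B. The MS values of miR-129-2-3p, 102, 176 and 127 CPM, overlapped those of MC. miR-145a-5p, a miRNA of smooth muscle and pericytes, had 22.4, 25.8 and 26.5 CPM in SS and 39.4, 52.7 and 67.9 CPM in MC (log2 fold change 0.97, DESeq2 adjusted p = 0.0265), and its log2 fold change was 1.06 within set B. miR-125a-5p had 1326 ± 308 and 2315 ± 183 CPM (SD, n = 3), with log2 fold changes of 0.75 over all libraries, 0.53 without MC replicate 16 and 0.40 within set B. In bulk tissue, a change in the number of cells of a type and a change in RNA per cell cannot be told apart.

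For other mature miRNAs higher in MC, 1 library set the size. miR-137-5p had 6, 12 and 17 counts in SS and 93, 32 and 33 in MC, and its log2 fold change of 2.51 was 1.32 without MC replicate 16. miR-200c-3p, a miRNA of epithelia, had 2.31, 0.697 and 2.08 CPM in SS and 5.41, 10.7 and 126 CPM in MC, so that MC replicate 20 alone held most of it (log2 fold change 4.56, SE 1.39). Both were called by DESeq2 (adjusted p = 0.0366 and 0.00905) and neither by edgeR (adjusted p = 0.432). miR-200c-3p also reached 58.2 CPM in a CS library and 43.5 CPM in an MS library.

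**Figure D4:**
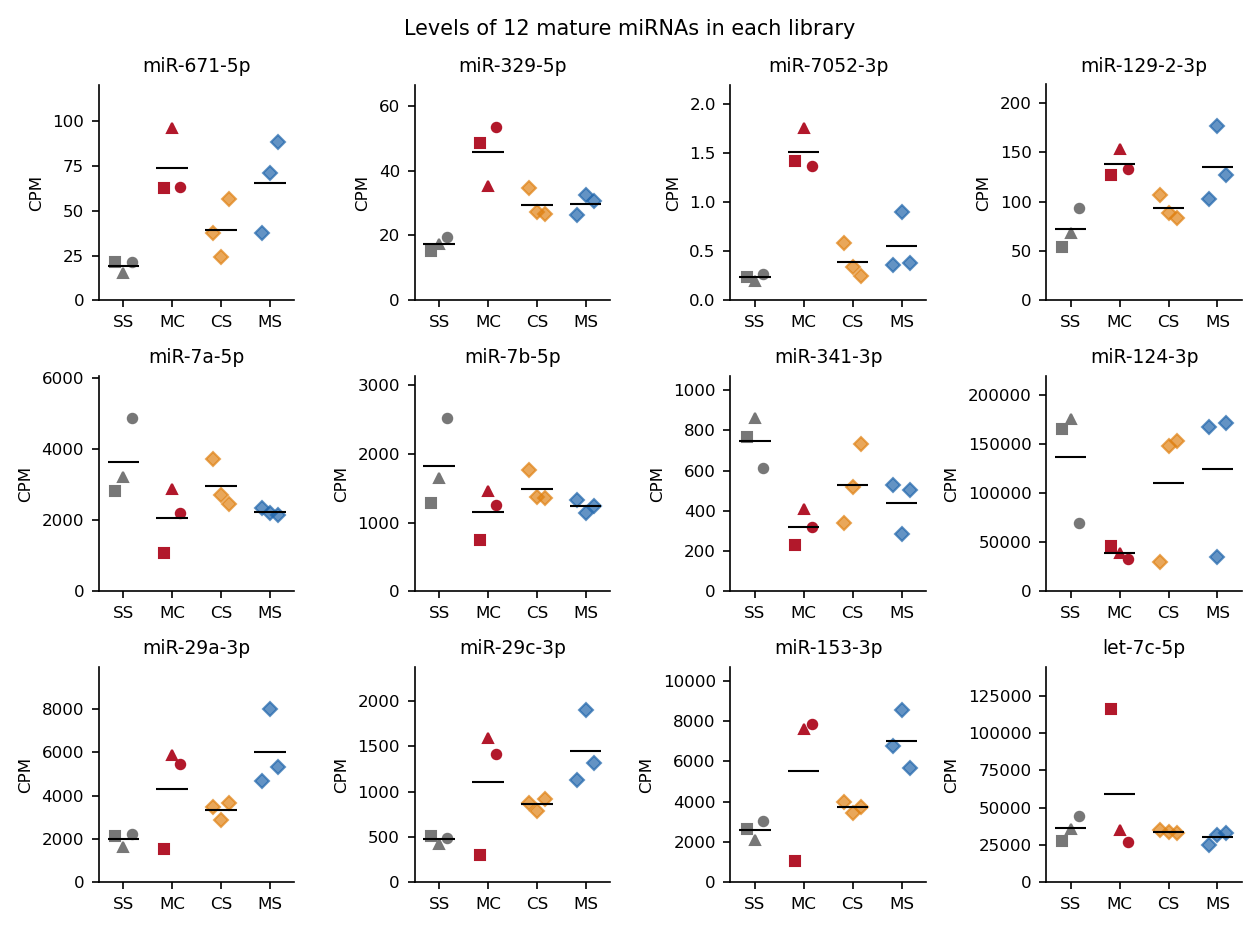
Points show the CPM of 12 mature miRNAs in each library of SS (grey), MC (red), CS (orange) and MS (blue), and lines the group means. Each axis starts at 0, and in MC the square is replicate 16. miR-671-5p, miR-329-5p and miR-7052-3p have all MC points above all SS points. miR-29a-3p, miR-29c-3p and miR-153-3p have MC 16 below SS and the other MC libraries above it, and let-7c-5p has MC 16 alone high, at 116002 CPM.

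miR-7 was lower in MC. miR-7a-5p, whose seed pairs with sites in Cdr1as and in mRNAs such as that of alpha-synuclein, had 2814, 3221 and 4876 CPM in SS and 1093, 2875 and 2204 CPM in MC. MC replicate 17 overlapped SS replicate 12 in CPM, but not after TMM scaling. The log2 fold change was -0.97 (SE 0.26, edgeR adjusted p = 0.432, DESeq2 adjusted p = 0.0113), -0.78 without MC replicate 16 and -1.17 within set B. miR-7b-5p, from another gene and with the same seed, had 1816 ± 639 CPM in SS and 1152 ± 366 CPM in MC (SD, n = 3), overlapped in CPM but not after TMM scaling, and had a log2 fold change of -0.79 (DESeq2 adjusted p = 0.0369).

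The miR-7 precursor family (RF00053) had 203, 162 and 176 CPM in SS and 47.2, 114 and 105 CPM in MC, without overlap (log2 fold change -1.18, SE 0.32, DESeq2 adjusted p = 0.00724). The difference of MC from MS was small for all 3, with log2 values of -0.09 for miR-7a-5p, -0.06 for miR-7b-5p and -0.31 for the precursor family. SS replicate 14 held the highest level of both mature forms in the 12 libraries.

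miR-341-3p, from an intron of the maternally expressed transcript Rian at chr12:109611556-109611576 (+ strand), had 765, 862 and 613 CPM in SS and 230, 408 and 322 CPM in MC. No MC library reached an SS library, and the log2 fold change was -1.36 (SE 0.41, edgeR adjusted p = 0.432, DESeq2 adjusted p = 0.0311) and -1.32 without MC replicate 16. miR-341-3p has a GC content of 66.7%. GC-rich miRNAs were high in MC replicate 16, where miR-341-3p had its lowest MC value, 230 CPM. What part base composition had in the difference was not tested. In CS it had 340, 517 and 731 CPM and in MS 529, 286 and 504 CPM. miR-98-5p, a let-7 relative on chromosome X in an intron of Huwe1, had 675, 754 and 918 CPM in SS and 406, 724 and 687 CPM in MC, which overlapped in CPM and not after TMM scaling (log2 fold change -0.50, SE 0.19, DESeq2 adjusted p = 0.00724).

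miR-124-3p, the leading miRNA of neurons and the miRNA with the highest mean CPM over the 6 libraries, had 165273, 176336 and 70274 CPM in SS and 46349, 38722 and 33188 CPM in MC. Every MC library was below every SS library. The difference was -1.86 on the log2 scale with a standard error of 0.78, and neither tool called it (adjusted p = 0.432 in edgeR and 0.129 in DESeq2). The low level was not particular to MC. CS replicate 8 had 30002 CPM and MS replicate 4 had 35552 CPM, while the other libraries of those groups had from 148929 to 171607 CPM, and SS replicate 14 lay between.

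The remaining 9 of the 10 most abundant mature miRNAs overlapped between the groups in CPM, apart from miR-138-5p. miR-138-5p, a regulator of dendritic spine size, had 20373, 19361 and 16790 CPM in SS and 24945, 21923 and 27770 CPM in MC, but overlapped after TMM scaling and had a log2 fold change of 0.32 (SE 0.21). miR-9-5p had 54308 ± 6610 CPM in SS (SD, n = 3), 15389 CPM in MC replicate 16 and 53757 and 59924 CPM in the other MC libraries. miR-26a-5p had 16980 CPM in MC replicate 16 and at least 33664 CPM in each of the other 5 libraries, and miR-99a-5p had 8939 CPM and at least 25228 CPM. miR-128-3p, miR-181a-5p and let-7a-5p had log2 fold changes of -0.40, 0.05 and 0.09.

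let-7c-5p and let-7b-5p, members of the let-7 family of differentiated cells, were high in MC replicate 16 alone. let-7c-5p had 116002 CPM there, 35018 and 26864 CPM in MC replicates 17 and 20 and from 27891 to 44733 CPM in SS. Over the 10 members of the family the median log2 fold change was 0.07, and without MC replicate 16 it was -0.37. let-7f-5p, let-7g-5p and let-7i-5p went the other way in MC replicate 16, at 6389, 5482 and 5706 CPM, below each SS library.

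The miR-29 family, whose 3p arms target collagens and de novo DNA methyltransferases, had a median log2 fold change of 0.91 over its 7 members against 0.16 over all mature miRNAs. That was the highest of the 18 lists with all 3 MC libraries, but not without MC replicate 16, when it was 0.63 and that of the miR-30 family 0.92, nor within set B, when it was 0.37 and that of leukocytes and microglia 1.13. The members include 5p arms, such as miR-29b-1-5p (1.31, and -0.05 without MC replicate 16) and miR-29c-5p (-0.41). miR-29a-3p had 2157, 1632 and 2244 CPM in SS and 1532, 5877 and 5476 CPM in MC. MC replicate 16 was below every SS library and the others were above each of them, and miR-29c-3p did the same with 515, 422 and 486 CPM in SS and 303, 1592 and 1415 CPM in MC. Their log2 fold changes were 0.91 (SE 0.34) and 1.01 (SE 0.40), each with an adjusted p of 0.432 in edgeR. Without MC replicate 16, edgeR called miR-29c-3p (log2 fold change 1.40, adjusted p = 0.0387) but not miR-29a-3p (1.23, adjusted p = 0.0845). miR-29b-3p had 276 ± 199 CPM in MC and 209 ± 48.7 CPM in SS.

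miR-153-3p, a neuronal miRNA in an intron of Ptprn2, was the other feature called by edgeR without MC replicate 16 (log2 fold change 1.31, SE 0.16, adjusted p = 0.0226). It had 2637, 2106 and 3063 CPM in SS, 1043 CPM in MC replicate 16 and 7607 and 7868 CPM in MC replicates 17 and 20. The MS libraries were high for all 3 miRNAs, from 5656 to 8548 CPM for miR-153-3p, from 4692 to 7983 CPM for miR-29a-3p and from 1134 to 1905 CPM for miR-29c-3p. The log2 differences of MC from MS were -0.37, -0.46 and -0.39, and those of MC from CS 0.52, 0.35 and 0.32. All 3 are poor in GC, at 36.4%, 40.9% and 36.4%, and the part of base composition in the low values of MC replicate 16 was not tested. With the correction for GC content, added after the data were seen, the log2 fold change of miR-153-3p was 0.72, against 0.86 in the main fit.

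**Figure D5:**
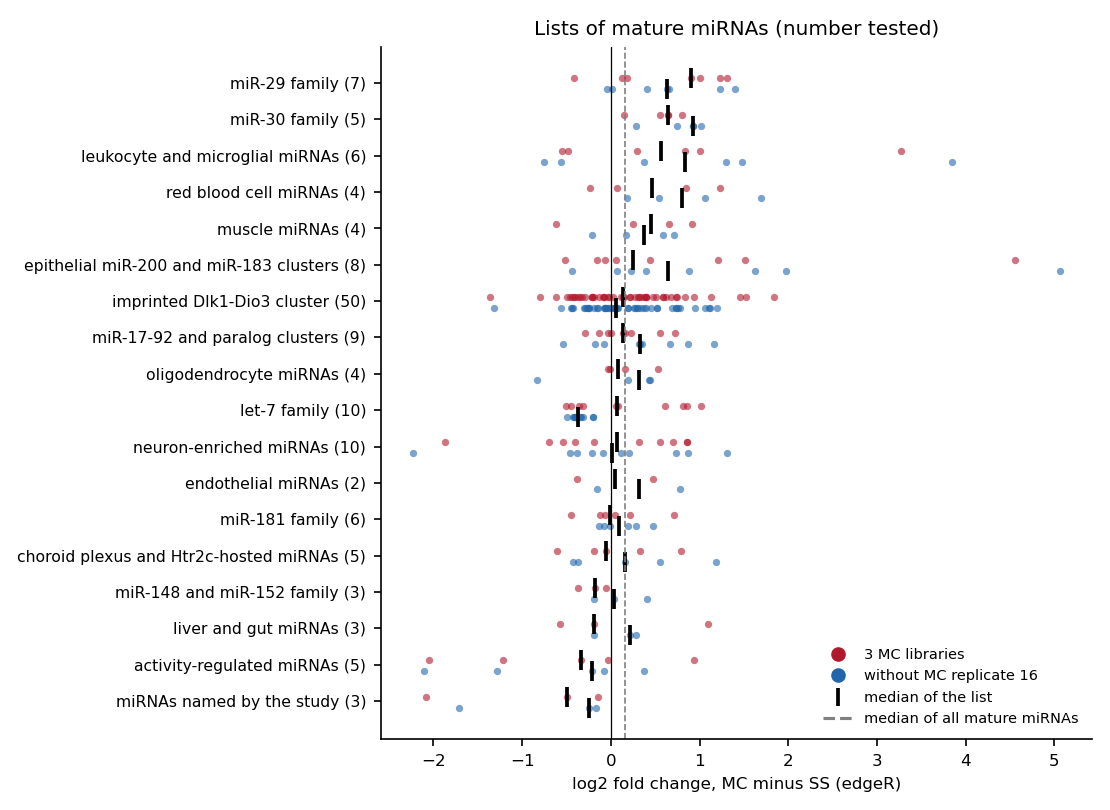
Each point is a mature miRNA tested, placed by its log2 fold change, MC minus SS, in the list named at the left (the number tested in brackets). Red points use the 3 MC libraries and blue points leave out MC 16, ticks are list medians and the dashed line is the median of all mature miRNAs, 0.16. With all 3 MC libraries the miR-29 family lies highest, at 0.91. When MC 16 is left out it moves to 0.63, below the miR-30 family at 0.92, and the let-7 family moves from 0.07 to -0.37.

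The 18 lists gather miRNAs by cell type, function or cluster, and none had a member past edgeR's threshold. Of 10 neuron-enriched miRNAs, 3 lay above SS in all MC libraries (miR-138-5p, miR-129-5p and miR-129-2-3p) and 1 below (miR-124-3p), or 1 above and 2 below after TMM scaling, and the median log2 fold change was 0.07. Of all mature miRNAs, 9.79% lay above and 2.01% below in CPM, and 6.43% and 5.36% after TMM scaling. Without MC replicate 16, the log2 fold changes of these 4 were 0.12, -0.08, 0.73 and -2.23 in the order named. Together they made up from 196805 to 285909 CPM in SS and from 111994 to 169487 CPM in MC, so markers of the labelled tissue were abundant in every library. Of 5 miRNAs of neuronal activity, miR-132-3p had 254, 283 and 1316 CPM in SS and 236, 296 and 299 CPM in MC, and miR-212-5p 69.3, 838 and 208 CPM and 84.3, 167 and 50.6 CPM. A single SS library set each of these differences, and the median of the list was -0.34. miR-134-5p went the other way, with 47.3, 34.6 and 37.9 CPM in SS and 106, 79.9 and 43.9 CPM in MC. Its log2 fold change was 0.94, and -0.03 within set B, and that of miR-212-3p was -0.03.

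Lists of other cells had medians between -0.19 (liver and gut) and 0.56 (leukocytes and microglia). The former turned to 0.22 without MC replicate 16 and 0.56 within set B, and the latter was 0.83 and 1.13. miR-223-3p, of myeloid cells, had 165.8 CPM in MC replicate 20 and between 1.29 and 5.06 CPM in the other 5 libraries. On the same list, miR-146a-5p and miR-155-5p were lower, with log2 fold changes of -0.55 and -0.48, and of -0.65 and 1.16 within set B. miR-451a, of red blood cells, had 382 CPM in MC replicate 16, 3549 and 3045 CPM in MC replicates 17 and 20 and from 1489 to 2205 CPM in SS. miR-219a-2-3p, of oligodendrocytes, had 27.7 CPM in SS replicate 14 and 64.8 CPM in MC replicate 20 and from 547 to 856 CPM in the other 4. The 6 muscle miRNAs summed to between 51.9 and 113 CPM, and of these miR-133a-3p had from 24.8 to 29.4 CPM in SS and from 39.3 to 59.7 CPM in MC. The endothelial miR-126a-3p had 6529 ± 449 CPM in SS, 2776 CPM in MC replicate 16 and 6904 and 7330 CPM in the others. miR-150-5p (0.29), miR-204-5p of choroid plexus (-0.61), miR-194-5p of gut (-0.58), miR-499-5p of muscle (-0.62), miR-429-3p of epithelia (-0.16), miR-92a-3p (-0.03), miR-148a-3p (-0.06), miR-30d-5p (0.15), miR-132-5p (-0.34) and miR-127-3p (0.48) were the most abundant members of their lists, and those log2 fold changes had unadjusted p-values above 0.05.

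The imprinted Dlk1-Dio3 cluster of chromosome 12 encodes a large share of the miRNAs of neurons. Of 50 listed members tested, among which miR-329-5p was not, 4 were higher in all MC libraries in CPM and 1 lower (3 and 2 after TMM scaling), beside 9.79% and 2.01% of all mature miRNAs, and the median log2 fold change was 0.14, and -0.06 within set B. The 4 were miR-337-5p, miR-370-3p, miR-494-3p and miR-667-3p, and the lower one was miR-341-3p. miR-370-3p had 26.4, 42.9 and 52.8 CPM in SS and 209, 150 and 73.8 CPM in MC, and miR-667-3p 38.6, 39.2 and 55.5 CPM and 180, 103 and 77.4 CPM. For both the MC library of set B was the nearest to SS, and within set B the log2 fold changes of both were small, at 0.32 and 0.41. The 3 miRNAs named in the study overlapped between the groups, with log2 fold changes of -2.08 for miR-224-5p, -0.50 for miR-340-3p and -0.15 for miR-330-5p, and the first rested on 11.1 CPM in SS replicate 12.

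The share of the less used arm among reads of the same precursor does not depend on how libraries are scaled. Of 220 precursors with both arms tested, it was higher in all MC libraries for 21 and lower for 12. Since 6 libraries can be split in only 20 ways, some of the 220 would not overlap even without a difference between the groups. For miR-9, whose arms both act in neural progenitors and neurons, miR-9-3p made up 4.92%, 4.84% and 3.56% of reads in SS and 9.32%, 8.18% and 9.45% in MC, including MC replicate 16. It was also high in MS, at 8.51%, 9.03% and 10.9%, and had 6.66%, 5.11% and 8.19% in CS. For miR-671, the minor 3p arm made up 7.89%, 12.0% and 14.9% in SS and 4.14%, 4.00% and 5.49% in MC. Its CS values of 6.79%, 10.1% and 4.36% and MS values of 8.04%, 6.32% and 3.58% overlapped MC. The 5p arm of miR-29c made up 28.4%, 34.3% and 33.1% in SS and 13.1%, 12.3% and 18.3% in MC, and the 3p arm of miR-340 37.7%, 39.1% and 54.2% and 28.3%, 28.9% and 30.5%. In MS the former was also low, at 17.45%, 12.2% and 15.3%, and the latter was 36.0%, 33.3% and 26.2%. In CS they were 27.6%, 23.7% and 18.6%, and 45.7%, 46.7% and 25.6%. The miR-137-5p arm made up from 0.0576% to 0.108% in SS, 3.18% in MC replicate 16 and 0.203% and 0.173% in the others. These arms were chosen after their values were seen, and the shares were not tested.

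Reads on precursor families of Rfam, a catalogue of RNA families, were tested for 125 families, 19 of them of plants. The let-7 family (RF00027) had 661, 10309 and 1227 CPM in SS and 510, 373 and 536 CPM in MC, and SS replicate 13 alone set the mean (log2 fold change -3.25, SE 1.06, edgeR adjusted p = 0.432). MS replicates 3 and 23 were as high, at 8096 and 9271 CPM. The miR-27 family (RF00644), of cells of the vessel wall among others, had 2034, 1743 and 1760 CPM in SS and 443, 1217 and 1188 CPM in MC, without overlap (log2 fold change -1.14, SE 0.32, DESeq2 adjusted p = 0.0197). Of the 106 families other than plants, 5 lay above SS in all MC libraries and 7 below in CPM (9.05% and 2.73% of all features), and 3 were higher and 12 lower at an unadjusted p under 0.05 (8.26% and 3.23% of all features). Over all 125 families, 4 lay above and 14 below after TMM scaling (6.32% and 5.38% of all features). Of the 19 plant families, none lay above SS in all MC libraries, because MC replicate 20 was near 0, but 14 had an unadjusted p under 0.05, and within set B their median log2 fold change was 0. Such families belong to another organism, and their source was not tested.

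Other precursors were near the detection limit. The insect families mir-14 (RF00752) and mir-276 (RF00637) had at most 1.13 and 8.78 CPM, both highest in MC replicate 17, and the former was at 0 in all SS libraries, which at a floor of 3 counts per library makes it at least 2.33-fold higher in MC. The miR-328-5p hairpin had 10, 14 and 6 counts in SS and 0 in each MC library, at least 3.04-fold lower.

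Of the 62 known piRNAs tested, 8 were above SS in all MC libraries and none below (5 and 0 after TMM scaling), beside 9.05% and 2.73% of all features in CPM and 6.32% and 5.38% after TMM scaling. Their median log2 fold change was 0.65. Without MC replicate 16 that median was 0.03. mmu_piR_034793 had 7.17, 7.37 and 16.5 CPM in SS and 54.2, 33.5 and 164 CPM in MC (log2 fold change 2.89, SE 1.04, edgeR adjusted p = 0.432). Its CS values of 104, 7.0 and 90.1 CPM and MS values of 26.7, 151 and 17.1 CPM spanned both groups. mmu_piR_000958 had 3.89, 0.598 and 0.542 CPM in SS and 37.1, 28.5 and 4.21 CPM in MC, and with 30.2 CPM in CS replicate 10 it was highest in the 3 libraries of set C (log2 fold change 3.86, DESeq2 adjusted p = 0.0386). Of those lower in MC, mmu_piR_019200 had 9.11, 9.46 and 2.35 CPM in SS and 2.83, 1.38 and 1.74 CPM in MC (log2 fold change -1.85, adjusted p = 0.434), and mmu_piR_039147 had 1.82 CPM in SS replicate 12 and at most 0.129 CPM elsewhere in the comparison.

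Predicted piRNAs are those the authors inferred from reads in transposon copies, and they were listed from 10 counts upward, so a listed 0 can stand for a count below 10. Of 219 tested, 13 were above SS in all MC libraries and 10 below in CPM (9.05% and 2.73% of all features), which turned to 10 above and 13 below after TMM scaling (6.32% and 5.38% of all features). The 2 predicted piRNAs with the smallest p among those higher came from 1 locus, an ERVL-MaLR long terminal repeat at chr2:27400951-27402008 (mm10, + strand) in an intron of Vav2 and on the opposite strand to it. novel_pir595 had 2.07, 1.39 and 1.72 CPM in SS and 10.4, 3.64 and 3.76 CPM in MC (log2 fold change 1.84, SE 0.56, edgeR adjusted p = 0.432), and 0.83 without MC replicate 16. novel_pir568 was listed at 0 in every SS, CS and MS library and at 11.2, 1.38 and 2.02 CPM in MC, which are 87, 11 and 22 counts. It met the minimum of 5 counts in 3 libraries through MC alone, so its p and rank give no separate support. Both entries carry the same coordinates and do not count as 2 separate loci.

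Among those lower, novel_pir701, in another ERVL-MaLR copy at chr5:17118211-17118485 (- strand), had 11.7, 7.27 and 8.49 CPM in SS and 3.09, 5.27 and 4.76 CPM in MC. The groups did not overlap, and the log2 fold change was -1.18 (SE 0.31, edgeR adjusted p = 0.432, DESeq2 adjusted p = 0.00562) and -1.13 without MC replicate 16. novel_pir632, in an ERVL copy at chr3:134773527-134774074 (- strand), had 3.78 ± 0.484 CPM in SS and 1.83 ± 0.246 CPM in MC (SD, n = 3). Neither locus overlapped a gene of GENCODE M21. By repeat family, ERVK copies gave 12.5% ± 1.92 of the counts of predicted piRNAs in SS and 8.80% ± 0.710 in MC, the only 1 of 11 families in which the exact permutation test reached its smallest p of 0.10.

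Predicted miRNAs, 34 of them tested, were likewise listed from 10 counts upward. novel_mir54, in an intron of Aff3 at chr1:38627245-38627306 (- strand), had 5.10, 3.29 and 3.34 CPM in SS and 1.42, 1.76 and 2.75 CPM in MC, without overlap (log2 fold change -1.10, SE 0.37, edgeR adjusted p = 0.432), and from 0.999 to 1.28 CPM in MS. novel_mir78 was listed at 0 in all SS libraries and from 1.10 to 1.88 CPM in MC but also in CS replicate 10 and MS replicate 4, novel_mir84 only in MC replicate 20 among the 6, and novel_mir89 only in SS replicates 13 and 14.

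Of 126 snoRNA families tested, 18 lay above SS in all MC libraries and 3 below (13 and 3 after TMM scaling), beside 9.05% and 2.73% of all features in CPM and 6.32% and 5.38% after TMM scaling. An unadjusted p under 0.05 was found for 20 higher and 3 lower (8.26% and 3.23% of all features). The median log2 fold change was 0.60, and 0.19 without MC replicate 16, when 2 and 2 had an unadjusted p under 0.05. SNORA11 (RF00614) had at most 0.243 CPM in SS and 1.42, 1.38 and 0.641 CPM in MC, SNORD19 (RF00569) at most 0.122 CPM in SS and 1.03, 0.376 and 0.366 CPM in MC, and SNORA35 (RF00566), which in mammals is encoded in an intron of a serotonin receptor gene, 0.122, 1.59 and 0.722 CPM in SS and at most 0.0916 CPM in MC. SNORA35 was highest in MS, from 2.12 to 4.83 CPM. Of the other families, the s2m motif (RF00164) had 0, 2.69 and 1.90 CPM in SS and at most 0.251 CPM in MC. Exon and intergenic reads had log2 fold changes of 0.38 and 0.20, and the former was -0.14 without MC replicate 16.

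MC was also set against the single treatments, to ask where both together differed from cocaine or methionine alone. In edgeR, 0 of 1393 features (0%) were past the threshold in MC vs CS (93 with an unadjusted p under 0.05, smallest adjusted p = 0.622), 0 (0%) in MC vs MS (153, smallest adjusted p = 0.403) and 0 (0%) for the interaction of cocaine and methionine (52, smallest adjusted p = 0.922). DESeq2 called 2, 34 and 1 features. The 2 were the family RF02024 and novel_pir745, which were found in SS replicate 12 and CS replicates 8 and 9 of set A and at 0 in MC. For the 34 of MC vs MS, all MS libraries were in set B and MC replicates 16 and 17 in set C. Set and treatment cannot be told apart there. With library set as a covariate, edgeR had 28 features with an unadjusted p under 0.05 in MC vs MS and called 0. The 1 of the interaction was miR-543-5p, which had 198 ± 14.0 CPM in SS and 216 ± 34.7 CPM in MC. The values of these 2 groups alone do not show an interaction. For miR-671-5p, the log2 difference was 0.97 from CS and 0.27 from MS, and for miR-329-5p 0.78 and 0.76. The MC libraries enter all of these comparisons, so they are not independent of the comparison with SS.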

How the data were processed

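Small RNA libraries of mPFC were sequenced on a BGISEQ-500. The authors mapped the reads with AASRA and, for piRBase, with Bowtie (mm10 in the submitters' processing notes), and deposited for each library the raw count of every small RNA and its TPM, the count divided by all counts of that library and brought to 1e6. The counts were used, and the deposited TPM was only compared with the CPM computed from them. edgeR 4.0.16 (quasi-likelihood test, R 4.3.3) was fitted to all 12 libraries with 1 term per group, TMM factors and features of at least 5 counts in at least 3 libraries, with Benjamini-Hochberg adjustment and a threshold of 0.05. DESeq2 1.42.0 was an alternative. Class shares were compared by exact permutation. Host genes are from GENCODE M21. With no feature called, the rule named the 2 higher and 2 lower features of smallest p in each class, the 10 most abundant miRNAs, the most abundant member of each list and miRNAs the study names. The others, such as miR-671-5p and miR-153-3p, were named after their values were seen. The GC correction was also added after the data were seen. Members, lists and library sets were chosen with earlier results of these data known. Scripts were tested on simulated data. No 2 libraries agreed within sampling noise.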

Additional observations from a re-analysis of the deposited data

How the results depend on the processing

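No paired analysis was possible because the groups share no replicate number. In edgeR, 0 features were called in MC vs SS under every other alternative than leaving out MC replicate 16, and leaving out 1 library gave from 0 to 2 calls. DESeq2 called 27 features in MC vs SS, 2 in MC vs CS, 34 in MC vs MS and 1 for the interaction. Over 71 named features and 1124 values, 1028 kept direction and side of the threshold, 19 passed the threshold and 77 turned or went to 0. The cause was not tested. The log2 fold changes that turned or went to 0 follow. Within set B, they were 0 for RF02024, -0.070 for exon reads, -0.54 for let-7a-5p, -0.69 for let-7b-5p, -0.89 for let-7c-5p, -0.34 for miR-127-3p, 0.0084 for miR-132-5p, 0.30 for miR-148a-3p, -0.19 for miR-181a-5p, 0.36 for miR-194-5p, -2.71 for miR-219a-2-3p, 2.00 for miR-224-5p, 0.13 for miR-92a-3p, 0.58 for mmu_piR_039147 and 0 for novel_pir745. With library set as a covariate, they were -0.025 for exon reads, -0.30 for let-7a-5p, -0.13 for let-7c-5p, -0.091 for miR-127-3p, 0.27 for miR-148a-3p, -0.43 for miR-150-5p, -0.016 for miR-181a-5p, 1.17 for miR-194-5p, -1.77 for miR-219a-2-3p, 1.19 for miR-224-5p, 0.12 for miR-330-5p and 0.33 for miR-92a-3p. With only the 6 libraries of the comparison, they were -0.034 for let-7a-5p, -0.061 for miR-181a-5p, -0.0095 for miR-451a and -0.088 for miR-543-5p. Without the filter, they were -0.069 for let-7a-5p, -0.067 for miR-181a-5p, -0.043 for miR-219a-2-3p and -0.074 for miR-543-5p. With total counts alone, they were 0.17 for miR-148a-3p and 0.016 for miR-429-3p. With DESeq2, they were -0.017 for miR-181a-5p and -0.050 for miR-543-5p. With DESeq2 size factors in edgeR, they were -0.016 for miR-181a-5p and -0.048 for miR-543-5p. With the GC correction, which was chosen after seeing the data, they were -0.0014 for miR-29b-3p, -0.10 for miR-451a and -0.021 for miR-543-5p. With mature miRNAs that have a sequence alone, they were -0.0097 for miR-451a and 0.010 for miR-92a-3p. With separate fits by class, they were -0.024 for miR-451a and 0.00052 for miR-92a-3p. With at least 10 counts in 3 libraries, the value was -0.017 for miR-543-5p. Leaving out each library in turn gave ranges of -9.59 to 0 for RF02024, -0.14 to 0.52 for exon reads, -0.33 to 0.24 for let-7a-5p, -0.43 to 1.35 for let-7b-5p, -0.49 to 1.14 for let-7c-5p, -0.052 to 0.68 for miR-127-3p, -0.44 to 0.41 for miR-148a-3p, -0.13 to 0.11 for miR-181a-5p, -0.84 to 0.65 for miR-219a-2-3p, -3.64 to 0.87 for miR-224-5p, -0.34 to 0.63 for miR-29b-3p, -0.076 to 0.33 for miR-30d-5p, -0.48 to 0.075 for miR-429-3p, -0.40 to 0.54 for miR-451a, -0.027 to 0.021 for miR-543-5p, -0.54 to 0.44 for miR-92a-3p, -3.55 to 0.51 for mmu_piR_039147, 0 to 5.90 for novel_mir84 and -9.25 to 0 for novel_pir745. For class shares, the difference for predicted miRNAs was 0.00089 percentage points outside genome regions, and leaving out 1 library gave -0.022 to 0.0074 points for it and -0.058 to 2.18 points for precursors. Depth limits the features of a few counts, such as miR-7052-3p.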
